A study of Equus asinus with 3 samples.

Results

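The genes described here are the ubiquitin-conjugating enzymes and the ubiquitin-specific proteases of the donkey (Equus asinus), taken as every feature whose name starts with UBE2 or with USP followed by a digit. The rule gave 82 members, 33 UBE2 and 49 USP, of 34267 features in all, and all 82 were listed in each of 3 single-cell RNA libraries. Per the labels, the libraries came from testis (cells labelled as germ cells), from epididymis caput and from epididymis corpus (both labelled as somatic cells), with 1 library per tissue. The tissue was from 3 sexually mature males, the animals carried no described treatment or allele, and the labels do not say which animal went into which library, so each library counted as 1 sample. With 1 sample per group no difference has a replicate check, and every interval below covers counting error only.

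Ubiquitin is a small protein that is joined to other proteins through a relay of enzymes. An activating enzyme (E1) charges ubiquitin, a conjugating enzyme (E2, the UBE2 genes) carries it, and a ligase (E3) places it on the substrate, which can send the substrate to the proteasome or change its partners. The USP genes encode the largest family of deubiquitinases, the proteases that take ubiquitin off again. In the testis the system is known for its part in meiosis, in the removal of histones from the spermatid nucleus and in the clearing of cytoplasm as sperm are formed. USP6NL meets the rule by its name but encodes a GTPase-activating protein for Rab proteins, and USP39, USP53 and USP54 have long been held to lack protease activity. No sequences are shown.

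The testis library held 47686179 unique molecular identifiers (UMIs, each counting 1 captured transcript) in 8610 barcodes, with a median of 4714 per cell. Caput was shallower, at 13203203 UMIs in 9478 barcodes (median 1145), and corpus shallower still, at 4142512 UMIs in 9611 barcodes (median 371). Clusters were named from fixed markers with all members left out of the genes used for clustering. In testis, 7754 cells in 11 clusters were germ-like, among them 2260 late spermatocyte-like, 2059 round spermatid-like and 567 elongating spermatid-like cells, and 2868 cells in clusters 2, 3, 6 and 17 kept no stage name. The somatic cells of testis numbered 104, in a fibroblast-like cluster of 56 cells and a leukocyte-like cluster of 48 cells. The caput library held 4131 cells and the corpus library 4819 cells of luminal epithelial-like, fibroblast-like, macrophage-like and T or NK-like clusters. The caput library also held 199 germ-like cells, in cluster 11 (142 cells, markers of several stages) and cluster 15 (57 cells, elongating spermatid markers). The testis library, labelled as germ cells, thus kept a few somatic cells, and the caput library, labelled as somatic, held some germ-like ones. Named somatic cells were 45.2% of kept caput cells and 50.2% of kept corpus cells. Clusters led by very long genes stayed unnamed and made up 48.8% of kept caput cells and 49.4% of kept corpus cells. Barcode names were serial numbers, and 7339 to 8957 of them were shared between pairs of libraries.

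Levels are given as CPM, the UMIs of a gene per 1000000 UMIs summed over the cells of a group. A call of higher or lower needed at least 50 UMIs on the higher side and both ends of the 95% interval of the ratio past 2-fold.

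The UBE2 genes together took 0.422% of UMIs in testis germ-like cells, 0.158% in caput somatic cells and 0.137% in corpus somatic cells. The USP genes took 0.322%, 0.219% and 0.235%. Within testis, the UBE2 share was 0.401% in late spermatocyte-like, 0.420% in round spermatid-like and 0.473% in elongating spermatid-like cells, and the USP share was 0.262%, 0.371% and 0.374%. The elongating spermatid-like clusters 7, 11 and 14 differed, with UBE2 shares of 0.437%, 0.526% and 0.772%. Their USP shares were 0.390%, 0.346% and 0.264%. The germ-like cells of the caput library stood near the testis germ cells, with 0.377% for UBE2 and 0.298% for USP. The 8 USP members called higher in germ-like cells against both epididymal libraries summed to 1612 CPM in testis germ-like cells, 197 CPM in caput somatic cells and 204 CPM in corpus somatic cells. The other 41 USP members summed to 1613, 1996 and 2148 CPM, so the higher family total in germ-like cells came from the 8. These 8 and 41 were divided by the same values that are summed.

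**Figure D1:**
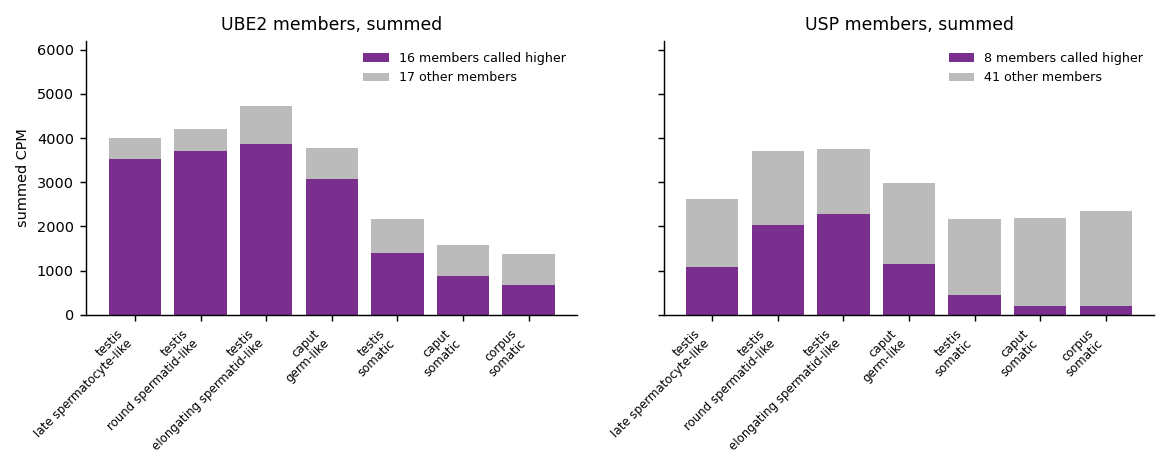
Summed CPM of the UBE2 members (left) and USP members (right) in 7 groups of cells, with the members called higher in testis germ-like cells against both epididymal libraries in purple and the other members in grey. The grey part of the USP bars is 1459 to 1829 CPM in the germ-like groups, 1716 CPM in testis somatic and 1996 CPM in caput somatic cells. The purple part is taller in the germ-like groups, but the colours were set by the same values that are drawn.

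The first question was which members differ between germ-like cells of the testis and somatic cells of the epididymis. Against caput somatic cells, 24 members were called higher (31.2% of the 77 that reached the UMI minimum) and 25 lower (32.5%), beside 25.5% higher and 43% lower of the 18767 features tested. Against corpus somatic cells, 25 of 73 members were called higher and 21 lower, beside 26.7% and 37% of all features. The families differed. Of 31 UBE2 members tested against caput, 16 were called higher and 6 lower (median log2 ratio 1.26), and of 46 USP members 8 were called higher and 19 lower (median log2 ratio -0.23). The median over all tested features was -0.52. Against corpus the same 16 UBE2 members were higher and 3 lower (median 1.66), and 9 USP members were higher and 18 lower (median -0.34), beside a median of 0.20 over all features. The distance between the family medians, which no change of scale alters, was 1.48 on the log2 scale against caput and 1.99 against corpus. It was 1.89 within caput and 0.05 within testis. These distances are among the members that reached the UMI minimum in each comparison. Over all members the distance was 1.59 against caput, 1.35 against corpus, 1.02 within caput and 1.17 within testis.

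The scale itself moved the counts. The median feature with enough UMIs on both sides stood at a ratio of 0.425 against caput and 0.281 against corpus (log2 -1.23 and -1.83). With these medians set to 1, the split of members became 41 higher and 15 lower against caput and 48 higher and 10 lower against corpus, and the USP medians turned positive (1.01 and 1.49). On that scale 39 of the 49 calls against caput and 35 of the 46 against corpus stood in the same direction, and USP25, USP39 and USP46 changed side against corpus. With corpus cells limited to those with at least 500 genes, 21 members were called higher and 2 lower. The somatic levels come from other libraries than the germ levels, and library and cell class cannot be told apart in these 2 comparisons.

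Among the UBE2 genes, the pair of RAD6 genes was higher in germ-like cells. UBE2B, which ubiquitinates histones and whose loss makes male mice infertile, stood at 352 CPM in testis germ-like cells, 107 CPM in caput somatic and 106 CPM in corpus somatic cells (3.29-fold, 95% interval 3.03 to 3.57, against caput). UBE2A, its copy on the X chromosome, stood at 49.8, 13.5 and 15.7 CPM. Of the enzymes that build chains signalling DNA damage and other non-degradative marks, UBE2N was at 224, 33.0 and 25.2 CPM (6.78-fold, 5.87 to 7.87, against caput). Its inactive partner UBE2V1 was called higher too, with 341, 88.1 and 41.4 CPM, and the partner UBE2V2 was called in neither comparison (50.7, 54.7 and 54.0 CPM).

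All 4 genes of the cell cycle and DNA repair group were higher in germ-like cells in both comparisons, beside 48.5% of the 33 UBE2 members and 19.7% of 18964 features. UBE2C, which works with the anaphase-promoting complex, stood at 99.5 CPM in germ-like cells, 10.5 in caput and 4.95 in corpus somatic cells. UBE2S, which extends chains on the same complex, stood at 135, 25.5 and 17.1 CPM. UBE2T, the E2 of the Fanconi anaemia pathway, stood at 143, 19.9 and 18.0 CPM. UBE2R2, a partner of cullin ligases, was at 335 CPM against 117 and 85.9 CPM. UBE2C, UBE2S, UBE2T and UBE2R2 were also each called higher against every one of the 8 epididymal classes taken alone.

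The UBE2D genes, which serve many ligases and are close copies of one another in sequence, split by gene. UBE2D2 (342 CPM in germ-like, 101 in caput and 97.1 in corpus somatic cells) and UBE2D4 (144, 13.1 and 13.5 CPM) were higher in germ-like cells. UBE2D1 was lower against caput, with 1.26 CPM in germ-like and 45.3 CPM in caput somatic cells (36.0-fold lower, 26.8 to 49.1), and had too few UMIs in corpus to be called (22.0 CPM). UBE2D3 was lower against caput (14.01 against 48.7 CPM) and uncalled against corpus (33.7 CPM). The labels do not say how reads shared between such copies were counted. UBE2E3, a nuclear E2, was among the lowest members in germ-like cells relative to somatic cells, with 2.40 CPM against 92.4 CPM in caput (38.5-fold lower, 31.2 to 48.0) and 72.0 CPM in corpus.

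Of the membrane-bound and soluble enzymes of endoplasmic reticulum degradation, UBE2J2 was higher in germ-like cells (128, 22.0 and 15.7 CPM) and UBE2G1 lower (6.10, 63.4 and 72.9 CPM). UBE2J1 was uncalled in both comparisons, although its level within the germ cells ranged widely, as given below. Among the E2 enzymes for ubiquitin-like proteins, UBE2F, which serves NEDD8, was lower (1.46, 32.1 and 32.4 CPM), and UBE2Z was lower against caput only (1.30 against 8.74 CPM, and too few UMIs in corpus).

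UBE2U had the highest ratio of the UBE2 genes against caput. It stood at 257 CPM in germ-like cells, 12.6 CPM in caput somatic and 18.4 CPM in corpus somatic cells (20.5-fold, 16.2 to 26.2, against caput). UBE2K, which binds the huntingtin protein and elongates chains, was at 386 CPM against 59.8 and 61.6 CPM. UBE2Q1 and UBE2Q2 were higher as well, at 2.39-fold (2.18 to 2.63) and 2.54-fold (2.27 to 2.85) against caput.

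Among the USP genes, USP50 and USP2 had the highest ratios against caput. USP50 stood at 257 CPM in germ-like cells, 8.21 CPM in caput somatic and 5.85 CPM in corpus somatic cells (31.3-fold, 23.5 to 42.6, against caput). USP2, a protease with testis-specific isoforms whose loss impairs male fertility in mice, stood at 249, 9.26 and 6.75 CPM (26.9-fold, 20.6 to 35.9, against caput). In the RefSeq table USP50 overlaps USP8, and since no strand setting is given, reads of the 2 genes cannot be told apart where they overlap. USP8, which acts on receptors at endosomes, was at 269, 48.2 and 56.2 CPM.

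The histone and chromatin group of USP genes split. USP44 (256, 20.8 and 19.8 CPM), USP49 (55.6, 8.56 and 8.10 CPM) and USP42 (134, 24.5 and 30.6 CPM), all able to remove ubiquitin from histones, were higher in germ-like cells, as was USP7 (359, 73.7 and 66.6 CPM), which stabilises the p53 ligase MDM2 and many nuclear proteins. USP22, the deubiquitinase of the SAGA transcription complex, was lower by the widest margin of any member, with 27 UMIs or 0.617 CPM in germ-like cells against 108 CPM in caput and 93.5 CPM in corpus somatic cells (176-fold lower, 119.5 to 269, against caput). USP3, USP36 and USP46 were lower too, with USP3 at 5.05 CPM against 66.2 and 76.9 CPM. USP16, another histone deubiquitinase, was called higher against corpus (190 against 80.5 CPM) and uncalled against caput (122 CPM).

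No USP gene of the DNA repair group was called higher and 5 of 10 were lower in both comparisons (USP10, USP11, USP28, USP45 and USP48). Beside this, 36.7% of the 49 USP members and 27.6% of 18964 features were lower in both. USP1, which acts on the Fanconi anaemia pathway opposite UBE2T, was uncalled at 153, 85.1 and 67.5 CPM. Of the proteasome and free-ubiquitin group, USP14 was lower (7.91, 38.4 and 41.8 CPM), USP13 was lower (3.45, 28.0 and 41.4 CPM) and USP5 was uncalled (40.5, 22.5 and 18.9 CPM). USP18 and USP25 of the interferon group were lower, USP18 at 0.960 CPM against 14.9 and 25.6 CPM. USP33, which acts on receptors and centrosomes, was lower (5.28, 60.3 and 60.7 CPM). USP26, an X-linked gene with known testis expression, was higher, with 32.4 CPM against 3.49 CPM in caput and 9.89 CPM in corpus.

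**Figure D2:**
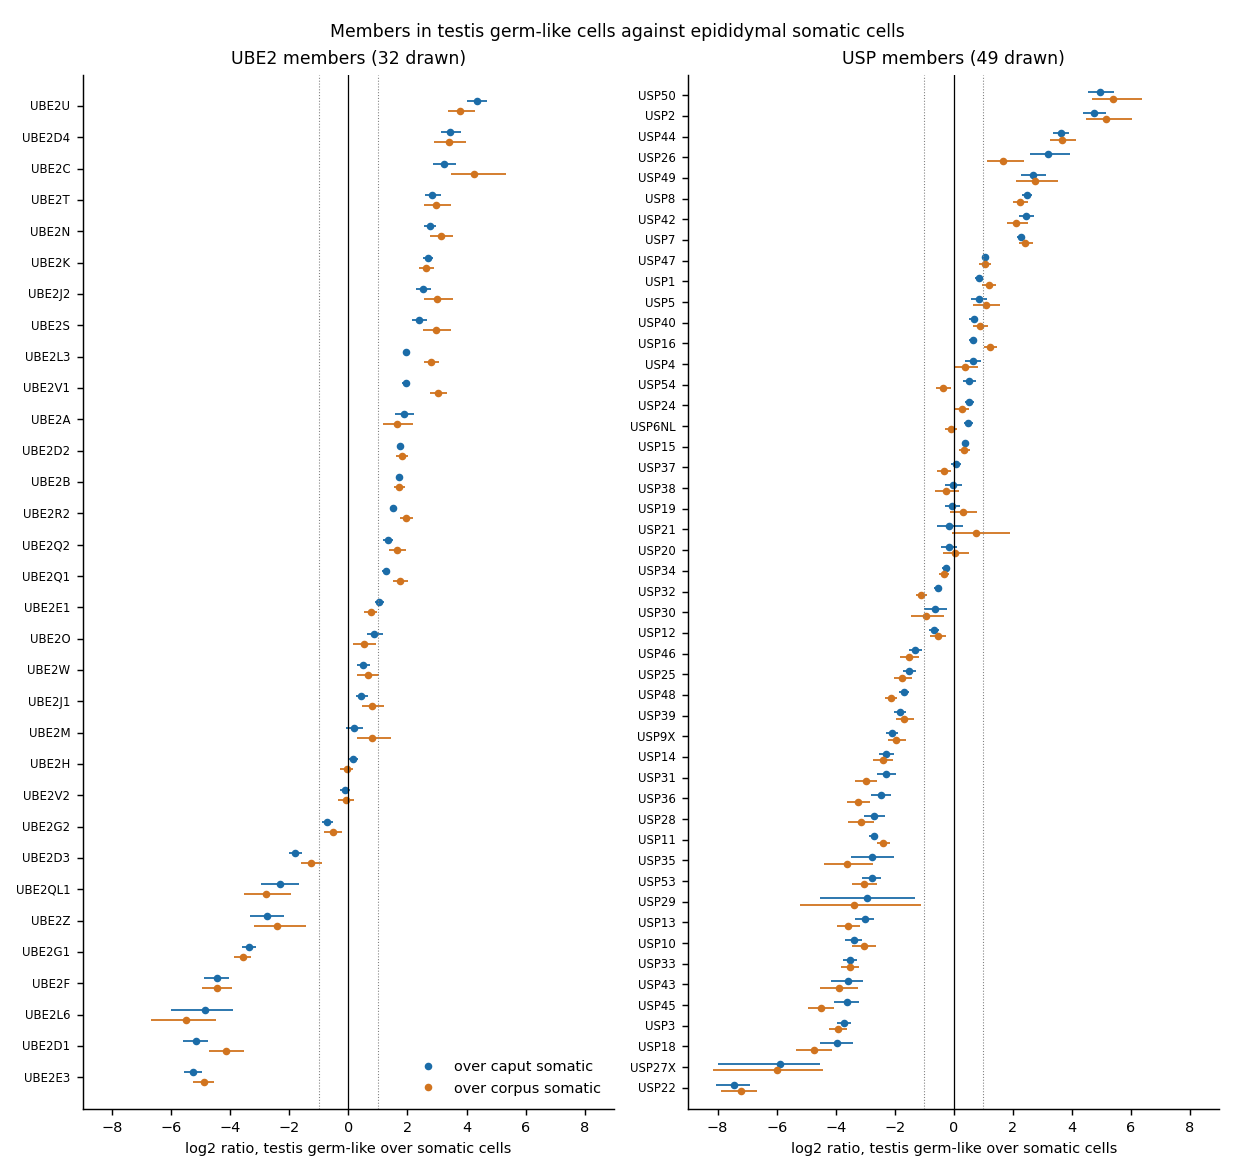
Log2 ratio of testis germ-like over caput somatic cells (blue) and corpus somatic cells (orange) for 32 UBE2 members (left) and the 49 USP members (right), with 95% counting intervals as lines, 0.5 counts added to the points and dotted lines at 2-fold. The UBE2 members sit mostly to the right of 0 and the USP members mostly to the left, with USP50 and USP2 at the top and USP22 at the bottom.

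Against the 8 epididymal classes taken one at a time, 17 members were called higher against every class (20.7% of 82), beside 1248 of 18964 features (6.58%). These were UBE2C, UBE2D2, UBE2D4, UBE2K, UBE2L3, UBE2N, UBE2R2, UBE2S, UBE2T, UBE2U and UBE2V1 (11 of 33 UBE2), and USP2, USP7, USP8, USP42, USP44 and USP50 (6 of 49 USP).

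The same contrast could be read inside 2 of the libraries, where germ-like and somatic cells went through one preparation. Within testis, 8 of 44 members tested were called higher in germ-like cells (18.2%, beside 12.4% of all features) and 0 lower (beside 3.81%). These were UBE2D4, UBE2K, UBE2U, USP2, USP8, USP42, USP44 and USP50. By family they were 3 of 23 UBE2 members (13.0%) and 5 of 21 USP members (23.8%), with median log2 ratios of 1.11 and 1.06 beside 0.92 over all features. The somatic side summed to 244223 UMIs and the germ side to 43769544, so a member higher in somatic cells could seldom reach the minimum of 50 UMIs. In all, 38 members missed it, USP22 and UBE2E3 among them. Over all members, tested or not, the median log2 ratios were 0.81 for UBE2 and -0.36 for USP. With a minimum of 10 UMIs, 8 members were called lower, beside the same 8 higher. Without the fibroblast-like cluster, 4 members were called higher. Germ markers summed to 3075 CPM in the fibroblast-like and 3985 CPM in the leukocyte-like cluster, 15615 to 98348 CPM in the germ-like clusters of testis, and 551 to 1424 CPM in the named somatic clusters of the epididymis. USP2 stood beside this at 73.7 CPM in testis somatic cells and 9.26 CPM in caput somatic cells, and USP44 at 65.5 and 20.8 CPM. The part of germ cell RNA in these testis somatic levels was not tested.

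USP22 had 16 UMIs in the fibroblast-like cluster of testis (127 CPM, 72.9 to 207) and 2 UMIs in the leukocyte-like cluster (16.8 CPM, 2.04 to 60.9). UBE2E3 had 12 and 6 UMIs there (95.6 and 50.5 CPM). Both levels lay well above those of the testis germ-like cells, within one library.

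Within caput, 19 of 64 members tested were called higher in the 199 germ-like cells (29.7%, beside 13.9% of all features) and 6 lower (9.38%, beside 20.1%). By family, 13 UBE2 members were higher and 1 lower (UBE2G1), and 6 USP members were higher and 5 lower (USP3, USP11, USP22, USP33 and USP36). USP2 was at 197 CPM in caput germ-like cells and 9.26 CPM in caput somatic cells (21.3-fold, 15.4 to 29.8), and USP50 at 136 and 8.21 CPM (16.5-fold, 11.5 to 24.0). UBE2U was at 194 and 12.6 CPM (15.4-fold, 11.5 to 20.9). USP22 was lower here too, at 10.2 against 108 CPM (10.6-fold, 5.11 to 26.5). The median feature stood at a ratio of 2.91 in this comparison, and with that set to 1 the split became 7 higher and 32 lower, 13 of the 25 calls stood, UBE2L3, UBE2Q2 and UBE2R2 changed side, and the UBE2 median turned from 1.29 to -0.25. Most calls rested on cluster 11, without which 3 members were called higher and 0 lower, and 18 and 6 remained called without cluster 15. Without cluster 15 the log2 ratio of UBE2J1 went from 2.28 to -0.12.

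In 4 of 4 germ against somatic comparisons, 8 members were called higher (9.76% of 82, beside 5.16% of 18964 features), and none was called lower in all 4 (beside 1.65%). They were the 8 called within testis, and testis or caput germ-like cells appear on one side of more than 1 of these comparisons. A lower call in all 4 needs at least 50 UMIs among the 244223 of testis somatic cells. USP22 and UBE2E3 did not reach this, so depth limits which members could be called lower in all 4. On the scale that sets the median feature to 1, UBE2D4, UBE2U, USP2 and USP50 were still called within caput, and UBE2K, USP8, USP42 and USP44 were not.

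**Figure D3:**
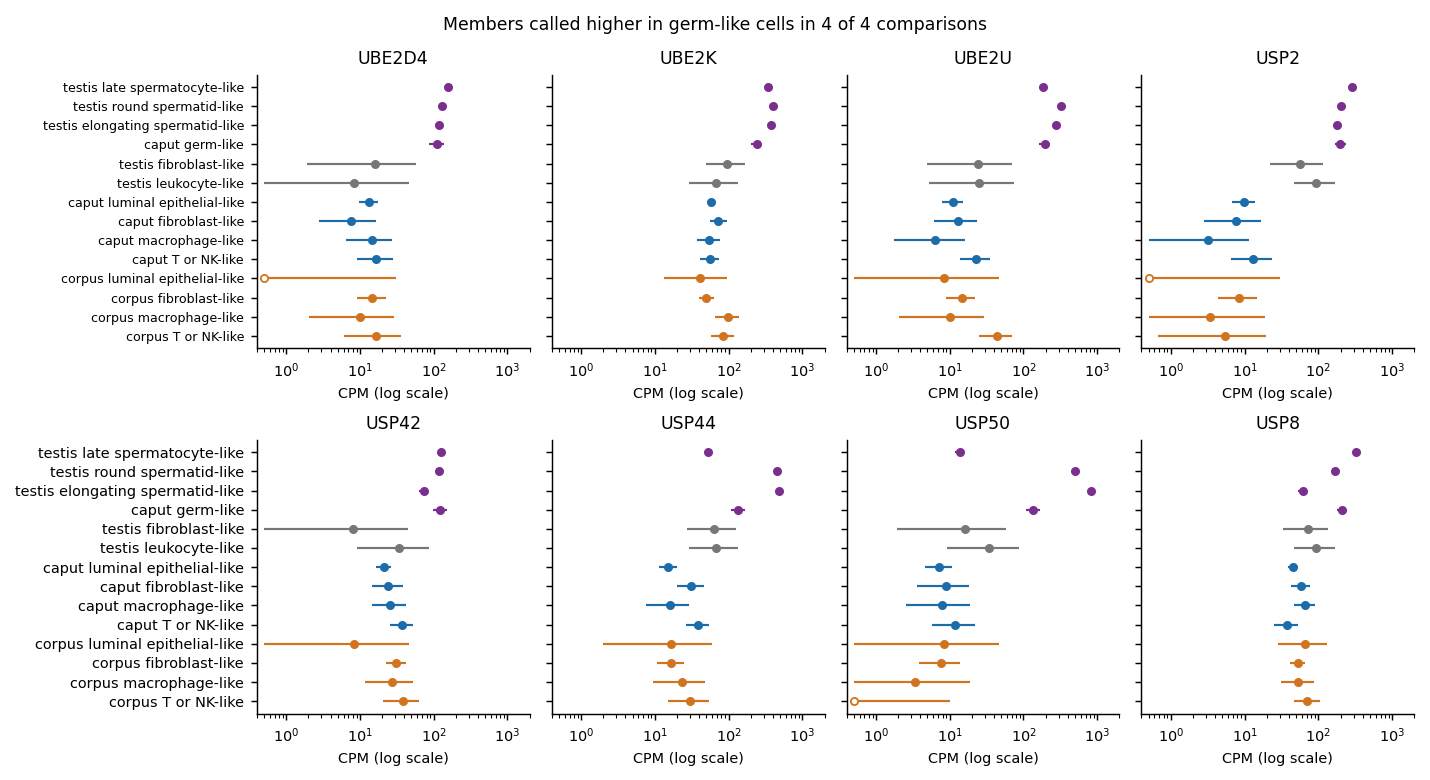
CPM (log scale, 95% Poisson intervals) of the 8 members called higher in germ-like cells in all 4 germ against somatic comparisons, in germ-like classes (purple), testis somatic classes (grey), caput classes (blue) and corpus classes (orange); open circles mark 0 UMIs, drawn at 0.5. USP50 in late spermatocyte-like cells (13.6 CPM) and USP8 in elongating spermatid-like cells (61.4 CPM) lie among the somatic values, whereas UBE2K is at 343 to 396 CPM in each testis stage.

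The next question was how the members vary along the germ stages of the testis. Between late spermatocyte-like and round spermatid-like cells, 11 of 68 members tested were called higher in round spermatid-like cells (16.2%, beside 31.4% of all features) and 7 lower (10.3%, beside 13%). Between round and elongating spermatid-like cells 4 of 61 were called higher (beside 8.8%) and 1 lower (beside 2.84%). From the first to the last named stage 12 of 62 were called higher (19.4%, beside 28.9%) and 13 lower (21.0%, beside 22.5%), so the members changed no more often than features at large. Their values spanned wide ranges. In the paragraphs that follow, clusters are taken in the order of their spermatid over spermatocyte markers, which is 0 and 4 (late spermatocyte-like), 2, 6 and 3 (no stage name), 5 and 1 (round spermatid-like), then 7, 11 and 14 (elongating spermatid-like). The names of these clusters used other genes, and clusters 2, 6 and 3 entered none of the stage comparisons. Germ-like cluster 17 (47 cells, no stage name) would fall between clusters 1 and 7 by its marker ratio of 2.43, but it was high in spermatocyte markers (9239 CPM, against 7497 in cluster 1 and 5859 in cluster 7) and in elongating spermatid markers (16849.5 CPM, against 6136 and 11646) at once. It was left out of the order, and its values are given below for USP50, UBE2J1 and UBE2T. Other members departed from the order in cluster 17 too. USP44 stood there at 190.4 CPM, against 467.7 in cluster 1 and 550 in cluster 7. UBE2C stood at 92.04 CPM, against 42.9 and 26.7, and UBE2H at 53.95 CPM, against 122 and 188. UBE2S and USP25 also lay outside their levels in clusters 1 and 7, whereas UBE2N (428 CPM) lay between its levels there.

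USP50 made the largest change. Its level was 15.2 and 11.5 CPM in the late spermatocyte-like clusters, then 58.2, 143 and 270 CPM in the clusters with no stage name, 388 and 553 CPM in the round spermatid-like clusters, and 778, 978 and 876 CPM in the elongating spermatid-like clusters. It was 60.3-fold higher (51.9 to 70.4) in elongating than in late spermatocyte-like cells. From cluster 4 to cluster 11 each step in this order was upward, and clusters 2, 6 and 3 lay between the late spermatocyte-like and round spermatid-like levels. Cluster 17 did not follow, at 321 CPM, below clusters 1 and 7.

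UBE2N followed the same course. It stood at 48.4 and 34.3 CPM in the late spermatocyte-like clusters, at 85.0, 138 and 204 CPM in clusters 2, 6 and 3, at 266 and 410 CPM in the round spermatid-like clusters and at 638, 1006 and 2463 CPM in the elongating spermatid-like clusters. The ratio of the last to the first stage was 19.2 (17.6 to 21.1). Its partners did not rise with it. UBE2V1 went from 331 CPM in late spermatocyte-like to 260 CPM in elongating spermatid-like cells, and UBE2V2 from 47.7 to 23.5 CPM, neither called.

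UBE2J1, a tail-anchored E2 of the endoplasmic reticulum whose loss disrupts sperm formation in mice, was low in most clusters. It stood between 15.9 and 21.8 CPM in the 7 clusters from 0 to 1 in this order, and at 524 CPM (165 UMIs) in cluster 17, which has no place in it. It stood at 57.0 CPM in cluster 7, 863 CPM in cluster 11 and 3179 CPM in cluster 14 (617 UMIs in 65 cells, 2933 to 3440.2 CPM). It was 20.8-fold higher (18.0 to 24.0) in elongating than in round spermatid-like cells. Among the other enzymes of endoplasmic reticulum degradation, UBE2G2 dipped from 42.4 CPM to 14.9 CPM in round spermatid-like cells and stood at 41.3 CPM in elongating ones, both steps called. UBE2J2 fell from 193 CPM to 66.3 CPM over the stages.

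USP25 peaked in cluster 11. USP25, which acts on degradation at the endoplasmic reticulum and on immune signalling, stood at 2.59 CPM in late spermatocyte-like, 19.9 in round and 82.5 CPM in elongating spermatid-like cells (31.9-fold, 22.4 to 46.7, last over first), with 188 CPM in cluster 11. Over all germ-like cells it stood at 14.2 CPM, below its 40.5 CPM in caput somatic cells.

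USP44 and USP49 rose, and so did UBE2R2. USP44 stood at 52.6, 455 and 482 CPM over the stages and at 550, 340 and 56.7 CPM in the 3 elongating spermatid-like clusters. USP49 stood at 20.2, 84.5 and 153 CPM, with 258 CPM in cluster 14, and UBE2R2 at 182, 447 and 589 CPM, with 778 CPM in cluster 14. In the RefSeq table USP49 overlaps MED20 and TOMM6. UBE2B (249, 437 and 505 CPM) and USP7 (243, 474 and 495 CPM) missed the 2-fold call, and both stood lower in cluster 14, at 129 and 119 CPM, than in any other germ-like cluster of testis. UBE2H and USP15 were also called higher in the last stage, with 158 against 52.7 CPM and 183 against 80.1 CPM. In cluster 14, the cluster highest in elongating spermatid markers, USP44 was near its late spermatocyte-like level.

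The members that fell from the first to the last stage included the 3 cell cycle and repair enzymes UBE2T, UBE2S and UBE2C. UBE2T stood at 308, 26.5 and 13.3 CPM over the stages, 23.3-fold lower in the last (17.3 to 32.1), and by cluster at 284, 340, 174, 103, 60.0, 37.0 and 21.2 CPM up to the round spermatid-like cells, with 143 CPM in cluster 17. UBE2S stood at 196, 43.7 and 16.9 CPM, and UBE2C at 164, 46.4 and 23.8 CPM. The fourth gene of that group, UBE2R2, moved the other way, as given above. In the RefSeq table UBE2T overlaps PPP1R12B.

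USP5, which disassembles free ubiquitin chains, stood at 67.4, 14.4 and 5.12 CPM over the stages (13.2-fold lower, 8.18 to 22.7). USP8 stood at 327, 170 and 61.4 CPM (5.32-fold lower, 4.62 to 6.15), opposite in course to USP50, the gene it overlaps. USP48 stood at 34.9, 13.4 and 6.02 CPM. UBE2M, the second NEDD8 E2, stood at 27.7, 16.9 and 6.32 CPM, and UBE2O, which acts as both E2 and E3, at 44.7, 28.6 and 12.6 CPM. USP19, USP32, USP39 and USP54 completed the 13 that fell.

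Other germ-enriched members kept a flatter level by stage average. UBE2K stood at 343, 396 and 375 CPM over the stages, UBE2U at 182, 319 and 273 CPM, USP2 at 285, 200 and 180 CPM and USP42 at 124, 117 and 72.9 CPM, none called between the first and last stage. A missing call does not show that stages were alike. In clusters 7, 11 and 14, USP42 stood at 81.8, 51.7 and 25.8 CPM and UBE2U at 298, 222 and 124 CPM. UBE2K stood there at 384, 380 and 252 CPM and USP2 at 171, 226 and 160 CPM. Without cluster 7, the largest of the 3 elongating clusters, 8 members were called higher and 17 lower.

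**Figure D4:**
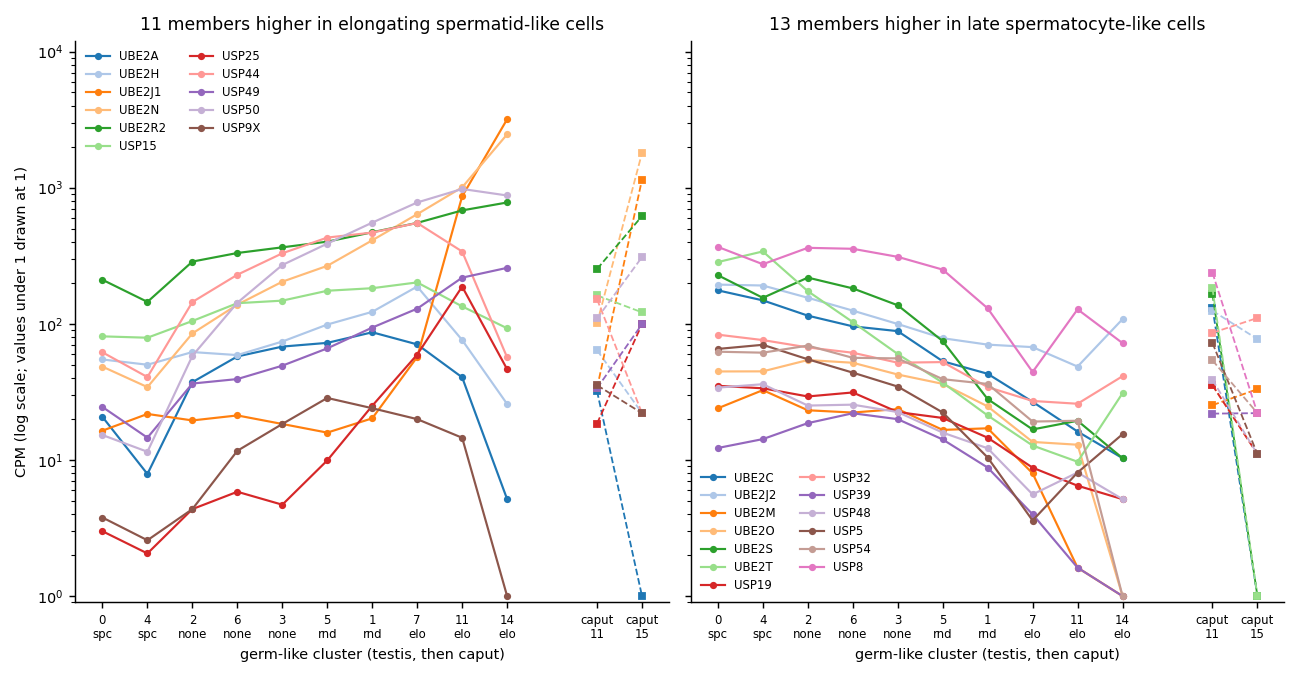
CPM (log scale, values under 1 drawn at 1) of 11 members called higher (left) and the 13 called lower (right) in elongating spermatid-like than in late spermatocyte-like cells, over testis germ-like clusters in marker order (spc, late spermatocyte-like; none, no stage name; rnd, round; elo, elongating) and over caput germ-like clusters 11 and 15 (squares). UBE2J1 stays near 20 CPM up to cluster 1, whereas UBE2N climbs at each step from cluster 4 on and USP50 up to cluster 11; cluster 17 is not drawn.

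The 5 members on the X chromosome, which is transcriptionally silenced in spermatocytes of mammals, were looked at apart. UBE2A stood at 15.2 CPM in late spermatocyte-like, 81.9 in round and 61.1 CPM in elongating spermatid-like cells. USP9X, a deubiquitinase with wide developmental roles, stood at 3.26, 25.5 and 17.8 CPM, and USP11 at 9.18, 26.5 and 22.0 CPM. All 3 were called higher in round spermatid-like than in late spermatocyte-like cells. USP26 stood at 25.1, 31.8 and 17.5 CPM and was not called. By cluster, USP26 was at 36.3 CPM in cluster 0 and 10.3 CPM in cluster 4, both late spermatocyte-like. USP27X had too few UMIs to be tested. The called share of 3 of 4 stood beside 116 of 209 tested features on X (55.5%) and 2246 of 10118 on other chromosomes (22.2%), with medians of 1.69 and -0.12 on the log2 scale. UBE2A rose 5.40-fold (4.64 to 6.30) between these stages and UBE2B, its copy on another chromosome, stood at 249 and 437 CPM.

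**Figure D5:**
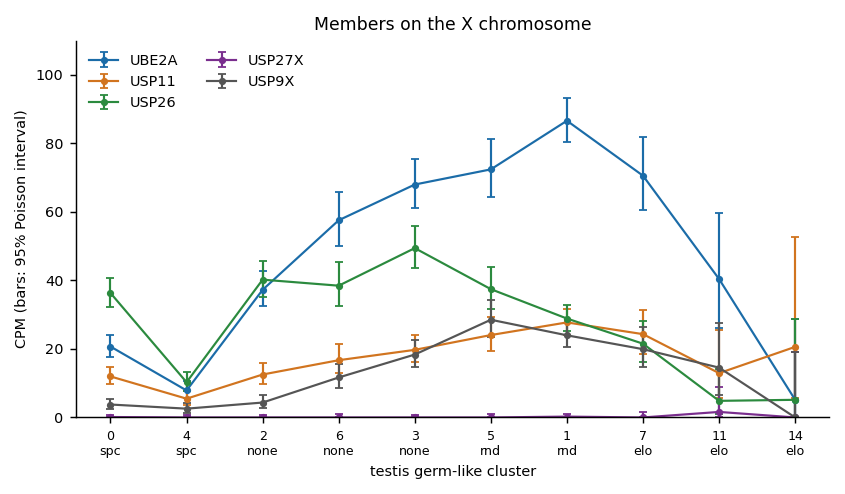
CPM (95% Poisson intervals) of the 5 members on the X chromosome over testis germ-like clusters in marker order. UBE2A, USP9X and USP11 are lowest in cluster 4 among the clusters before the elongating ones and higher in the round spermatid-like clusters, and USP27X stays near 0; cluster 17 is not drawn.

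The germ-like cells of the caput library allowed the stage pattern to be read in a second library. Cluster 15, high in elongating spermatid markers (53759 CPM), was set against cluster 11 (1180 CPM). Of 26 members tested, 2 were called higher in cluster 15 (7.69%, beside 7.27% of all features) and 7 lower (26.9%, beside 37.3%). UBE2J1 stood at 1148 CPM in cluster 15 and 33.7 CPM in cluster 11 (34.1-fold, 21.0 to 58.1), and UBE2N at 1799 and 101 CPM (17.8-fold, 13.2 to 24.4). UBE2T, UBE2S and UBE2C had 0 UMIs in cluster 15 and 108, 98 and 78 UMIs in cluster 11. Against a floor of 3 counts over the cluster they were at least 5.49-fold, 4.98-fold and 3.97-fold lower. USP8 was at 22.1 against 237 CPM, and USP16, UBE2D2 and UBE2L3 were lower as well.

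Of the 12 members called higher along the testis stages, 5 could be tested in caput. Of these, 2 were called the same way (UBE2J1 and UBE2N) and 3 had the same sign. USP15 and USP44 had the opposite sign (log2 -0.36 and -2.47). Of the 7 not tested, UBE2A, UBE2H and USP9X had the opposite sign (log2 -2.57, -1.23 and -0.39). They had 0, 2 and 2 UMIs in cluster 15. The others of the 7 had the same sign. Of the 13 called lower, 5 could be tested, 4 were called the same way (UBE2C, UBE2S, UBE2T and USP8) and 5 had the same sign. No tested member of either set was called the opposite way. Cluster 11 summed to 593913 UMIs and cluster 15 to 90627. A fallen member thus reached the UMI minimum far more easily if lower in cluster 15 than if higher. The 5 shared signs were therefore nearly fixed in advance, and no agreement is read from them. Of the 8 fallen members not tested, UBE2M, USP32 and USP39 had the opposite sign (log2 0.57, 0.42 and 0.28). UBE2O, USP5, USP19, USP48 and USP54 had the same sign. USP44 (22.1 CPM in cluster 15, 152 in cluster 11) went the other way from its testis stage average and the same way as testis cluster 14 (56.7 CPM). USP50 (309 against 109 CPM) rested on 28 and 65 UMIs with no call. Cluster 15 summed to 90627 UMIs, so a member at 0 UMIs there may still stand at up to 33.1 CPM.

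Among the somatic classes, USP11, a deubiquitinase of DNA repair, was the one member called for a class in both epididymal libraries, and it was singled out after its values were seen. In the corpus it stood at 636 CPM in luminal epithelial-like cells (77 UMIs in 150 cells, 502 to 795 CPM) and at 58.0 CPM over the other 3 classes (10.97-fold, 8.14 to 14.7). In the caput it stood at 147 CPM in luminal epithelial-like cells and 60.2 CPM over the other classes (2.44-fold, 2.01 to 2.97). No other member with at least 50 UMIs in its highest class had its whole interval past 2-fold there in either library. USP37 stood higher in caput T or NK-like cells by less than that rule asks (2.27-fold, 1.74 to 2.94) and UBE2M stood at 2.23-fold (1.40 to 3.67) in caput luminal epithelial-like cells. Below that minimum of UMIs, 3 members had the whole interval past 2-fold. USP36 stood at 107 CPM in corpus macrophage-like cells (32 UMIs) and 28.0 CPM in the other classes (3.83-fold, 2.39 to 6.03). USP28 stood at 55.1 CPM in caput fibroblast-like cells (43 UMIs) and 16.2 CPM in the other classes, and UBE2L6, the E2 of the interferon-induced modifier ISG15, at 28.8 CPM in caput macrophage-like cells (18 UMIs) and 4.90 CPM in the others.

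Between caput and corpus, within matched classes, USP11 was again the one member called. It was lower in caput than in corpus luminal epithelial-like cells (147 against 636 CPM, 4.34-fold, 3.37 to 5.52), 1 of 42 members tested (2.38%, beside 1.13% of all features), and no member was called higher (beside 1.99%). In fibroblast-like cells 0 of 35 members were called in either direction (beside 1.31% higher and 0.351% lower), in macrophage-like cells 0 of 8 (beside 5.78% and 2.43%) and in T or NK-like cells 0 of 22 (beside 2.52% and 0.851%). The corpus luminal epithelial-like class summed to 121007 UMIs, so a member at 0 UMIs there may still stand at up to 24.8 CPM.

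The rest of the ubiquitin pathway was read from fixed lists, beside 25.5% of all features higher and 43% lower against caput. Of 4 ubiquitin precursor genes, 2 were higher in testis germ-like than in caput somatic cells, UBB among them, and RPS27A, which encodes ubiquitin fused to a ribosomal protein, was lower. UBB stood at 8124 against 1836 CPM (4.43-fold, 4.34 to 4.51) and RPS27A at 138 against 1483 CPM (10.7-fold lower, 10.4 to 11.1). Of 9 E1 genes tested, UBA2 was higher (346 against 37.6 CPM) and 3 were lower, UBA6 and ATG7 among them. Along the testis stages UBA1, the main ubiquitin E1, was higher in elongating than in late spermatocyte-like cells (142 against 10.1 CPM, 14.1-fold, 11.6 to 17.2). MOCS3 was higher too, and the other 6 of 8 tested E1 genes were lower (75.0%, beside 22.5% of all features).

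Of 32 other deubiquitinases tested against caput, 9 were higher (28.1%) and 10 lower (31.2%), beside 25.5% and 43% of all features. ATXN3 stood at 284 against 26.2 CPM and BAP1, a nuclear deubiquitinase, at 155 against 17.6 CPM, and BRCC3 was lower at 1.69 against 42.3 CPM. Of 53 ligases and cullin genes known from germ cells, 21 were higher (39.6%) and 10 lower (18.9%). Because the list was picked for germ cells, its share called higher cannot be read against that of all features. CDC20, the activator of the complex that UBE2C and UBE2S serve, stood at 589 against 13.5 CPM (43.7-fold, 35.0 to 55.5), and KLHL10, a cullin adaptor of spermatids, at 306 against 8.21 CPM. Of 15 ubiquitin-like modifier genes, 2 were higher (13.3%) and 7 lower (46.7%), with ISG15 at 0.937 against 27.3 CPM.

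Along the stages, OTUB2 and UCHL1 were among 6 other deubiquitinases higher in elongating than in late spermatocyte-like cells, OTUB2 at 119 against 1.26 CPM and UCHL1 at 65.1 against 0.444 CPM (4 were lower, of 27 tested, beside 28.9% higher and 22.5% lower of all features). Of the ligases and adaptors, 16 of 51 were higher (31.4%) and 10 lower (19.6%), shares near those of all features, with RNF133, a membrane ligase of spermatids, at 214 against 2.66 CPM and KLHL10 at 1049 against 18.4 CPM. NEDD8 fell together with its E2 UBE2M, at 65.4 against 225 CPM.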

How the data were processed

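Droplet single-cell RNA libraries were made with a DNBelab C kit from digested tissue, per the labels' protocols. The deposited values were raw UMI counts per feature and cell barcode, written by PISA 0.12 per the file headers. Cell Ranger 2.1.1 stands in the submitters' processing notes with no role given. The aligner, genome build and strand setting were not given in these sources.

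All 82 members matched the RefSeq gene table (assembly EquAss-T2T_v2) by symbol, which was used for chromosomes and overlapping neighbours only. Of the members, 18 overlap another gene, and the reads of such pairs, of close copies and of pseudogenes are uncertain. A feature named only by locus number there, paired with UBE2E2, is no member by name.

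The gene minimum per cell was 200. Doublet scores came from comparison with 2 simulated pairs per cell, which removed 104 testis, 342 caput and 18 corpus barcodes. The corpus share of 0.187% is too low to rely on, so doublets may remain there. Each library was clustered on 2000 variable genes (members left out), 30 principal components, 15 neighbours and Leiden resolution 1.0 with seed 0. A cluster took a class name from at least 3 markers, holding 20% of those measured, each at least 2-fold above the other clusters' median, after adding 10 CPM. These naming thresholds were set after the clusters were seen. Clusters whose germ markers passed 5000 CPM with no somatic candidate were germ-like.

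Counts were summed per library and class. CPM carry exact Poisson intervals and ratios exact conditional binomial intervals (95%), with 0.5 counts added for log2 ratios and a floor of 3 counts against 0 UMIs. These intervals do not cover variation between animals or preparations. The calls were tested on simulated Poisson counts drawn from the caput somatic profile. These counts held no spread between cells, libraries or animals, so the test checks the calculation only. Members and gene lists were chosen with earlier results of these data known. Named genes were, per comparison, family and direction, the 5 with intervals farthest from 1, the 3 per family with most germ UMIs, the 2 per stage and family highest over other stages, up to 3 per pathway list, and a fixed list of 16 members. One member and a few pathway genes are counted but not reported singly here, and that member is not drawn. Other members are named where a role group or count needed them, after their values were seen.

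Alternatives were a minimum of 10 UMIs, 4-fold, other scalings, thinning of the deeper sum, 500 genes per cell, Leiden resolution 2.0, doublets kept, 4000 variable genes, whole libraries and all clusters that were not germ-like as the somatic side. Leaving out single clusters and setting each somatic class apart were chosen after seeing the data. Python 3.11.15 was used with numpy 2.4.6, scipy 1.17.1, pandas 2.3.3, scikit-learn 1.9.0, scikit-image 0.26.0, igraph 0.11.9, leidenalg 0.10.2 and matplotlib 3.10.9.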

Additional observations from a re-analysis of the deposited data

How the results depend on the processing

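No paired analysis was possible because each tissue has 1 library. Scaling by the median ratio moved the counts of members called higher and lower to 41 and 15 against caput somatic cells, to 48 and 10 against corpus somatic cells and to 7 and 32 within caput, gave 43 higher within testis, and called 1 member higher in caput than in corpus T or NK-like cells. Requiring 4-fold left 16 higher against corpus, 3 higher within testis, 10 higher and 1 lower within caput, 7 higher and 5 lower between the first and last stage, and 0 lower in caput than in corpus luminal epithelial-like cells. A minimum of 10 UMIs gave 8 lower within testis and 1 lower in caput than in corpus macrophage-like cells. Thinning the deeper sum left 5 higher within testis and 3 lower within caput. A minimum of 500 genes per cell left 2 lower against corpus. Without the fibroblast-like cluster 4 were higher within testis, and without caput cluster 11, 3 were higher and 0 lower. The causes were not tested, apart from fewer cells or a stricter rule by construction.

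Of 2773 log2 ratios of single named genes under alternatives, 2365 moved by less than their counting interval, 399 moved further and 9 changed sign. On the median-ratio scale USP25 stood at 0.092 against corpus, and UBE2R2 and UBE2L3 at -0.173 and -0.059 within caput. Without caput cluster 11, UBE2C stood at -0.94, UBE2T at -1.86, USP8 at -0.81, UBE2S at -2.21 and UBE2L3 at -0.40, and without cluster 15 UBE2J1 stood at -0.12. Depth limits the corpus library most, with a median of 371 UMIs per cell.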
